A study of Mus musculus with 6 samples.

Results

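Cohesin, the ring that holds sister chromatids together, was followed here through 10 genes that encode its subunits, its regulators and separase, the protease that opens it. They are Smc1a, Smc3, Rad21, Stag1, Stag2, Esco1, Esco2, Cdca5, Pttg1 and Espl1, and they were taken by symbol from the 24062 genes of the count table, where all 10 were found and tested among 16904 genes. The libraries were RNA-seq of whole retinae at postnatal day 21 from mice labelled C57BL/6 (C57BL/6N in the study's methods), with 3 Chx10-Cre Rb1/p107/Hells triple knockout (TKO) and 3 Chx10-Cre Rb1/p107 double knockout (DKO) retinae. Both groups carried Chx10-Cre, which acts in retinal progenitors, floxed Rb1 and a germline null of p107, and the TKO retinae also carried floxed Hells, a chromatin remodeler of the SNF2 family. The Cre is active in a mosaic pattern, so each retina also held cells that did not recombine. The DKO is the comparison group and also a retinoblastoma model, and no wild-type retina was analysed here. Sets of 3 values below stand in the order of replicates 1, 2 and 3.

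As background, cohesin is a ring of SMC1A, SMC3 and RAD21 with a STAG1 or STAG2 subunit, and every nucleated cell uses it to fold chromatin into loops, dividing or not. In cells that replicate DNA, ESCO1 and ESCO2 acetylate SMC3 and sororin, the product of Cdca5, then keeps the ring closed until mitosis. At anaphase, securin (Pttg1) is degraded, separase (Espl1) is set free and RAD21 is cleaved. Neurons and photoreceptors of the mature retina have left the cell cycle, while Rb1/p107-null retinae keep cells that divide.

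Espl1 (separase), Esco2 (an SMC3 acetyltransferase) and Cdca5 (sororin) fell in TKO retinae by 3.61-fold to 4.50-fold. Esco1, the other SMC3 acetyltransferase gene, rose 1.44-fold. The subunits Smc1a, Smc3, Rad21, Stag1 and Stag2 had fitted differences between -0.27 and 0.18 on the log2 scale, and Pttg1, which encodes the inhibitor of separase, had 0.24, none of which passed an adjusted p of 0.05. At this threshold of the quasi-likelihood test of edgeR over all genes, 4 of 10 members changed, 3 by falling and 1 by rising, where 16.6% of the genes tested changed, 9.2% by falling and 7.35% by rising. The 3 that fell also met the 3 criteria of the study's methods for differential expression (adjusted p of at most 0.05, log2 fold change of at least 1 in size and mean normalized count of at least 10), which 4.38% of the genes tested met in that direction and 1.97% met by rising. The normalized counts of the genotypes did not overlap in 6 members, 5 lower and 1 higher in TKO, against 20.6% and 18.0% (38.6% in either direction) of the genes tested. Leaving out TKO replicate 2, DKO replicate 1 or DKO replicate 2 left 0 members past the threshold in either direction, and leaving out TKO replicate 1 left 1, Espl1. Calls over all genes tested fell in these fits too. By the 3 criteria, 741 genes were lower and 333 higher in TKO with all retinae. Without TKO replicate 2, DKO replicate 1 or DKO replicate 2 they were 312 and 164, 360 and 140, and 350 and 121. Without TKO replicate 1 they were 491 and 209. The median log2 fold change was -0.15 over the members and -0.011 over all genes tested.

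**Figure D1:**
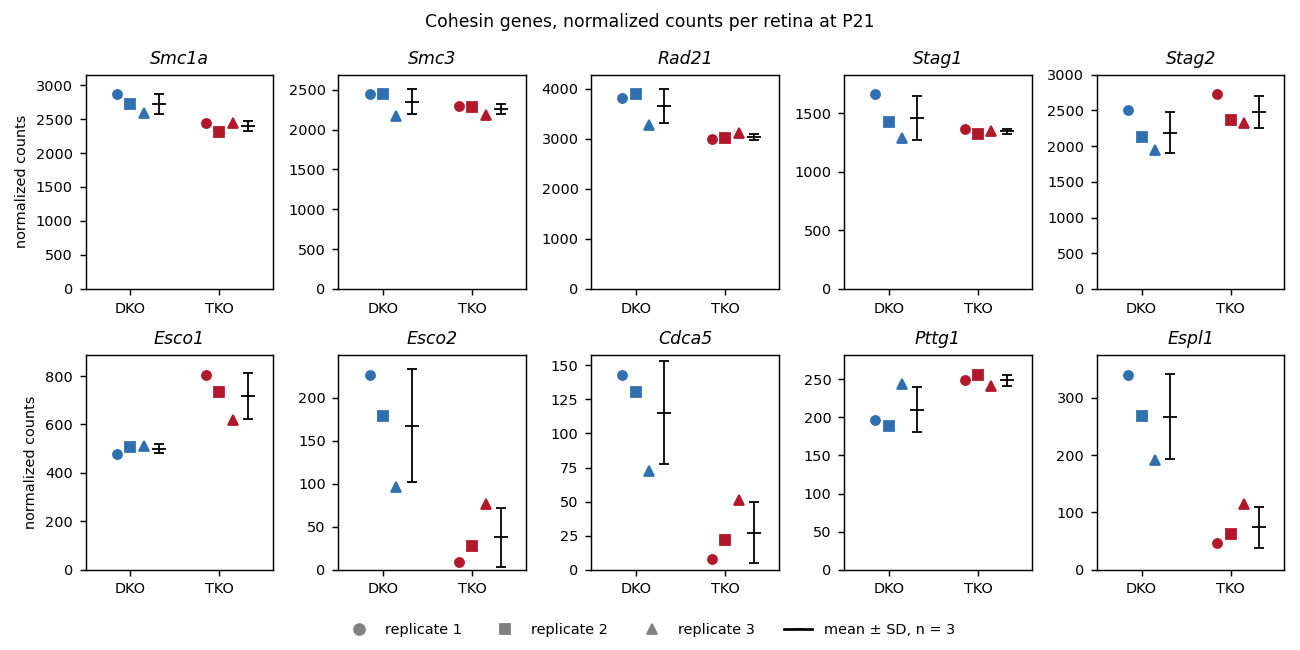
Normalized counts (vertical axes, each from 0) of the 10 genes in each DKO (blue) and TKO (red) retina, with the replicate number as the symbol and the mean ± SD (n = 3) in black. Esco2, Cdca5 and Espl1 were lower in each TKO retina than in each DKO retina and Esco1 was higher, while Smc3, Stag1, Stag2 and Pttg1 overlapped.

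Facts of the whole series that touch these genes were as follows. Total counts ran from 10343907 to 14203098 per library. Hells, the targeted gene, had 60.8, 68.4 and 83.4 normalized counts across the TKO retinae and 678, 523 and 395 in the DKO retinae (log2 fold change -2.91, adjusted p = 0.00359 from edgeR). Each TKO retina thus lay below each DKO retina, in the direction of the labels. The dividing-cell markers fell by a similar size (median -2.59), so Hells counts alone do not establish the genotype of a retina. Of 10 markers of dividing cells (Mki67, Top2a, Ccna2, Ccnb2, Cdk1, Aurkb, Bub1, Kif11, Tpx2 and Nusap1), all 10 fell, with a median log2 fold change of -2.59. Their summed normalized counts were 1015, 1403 and 2796 in the TKO retinae and 13366, 9791 and 6247 in the DKO retinae, and no marker was at 0. All 10 rod markers rose, and their sum ran from 375810 to 760620 in TKO and from 128190 to 245200 in DKO retinae. Of the other marker lists, 2 of 6 cone, 1 of 8 bipolar, 5 of 9 lens and 1 of 8 pigment epithelium genes rose, 5 of 8 microglia genes fell, and 3 of 8 Müller glia genes rose and 1 fell. Of 5 horizontal cell genes, 1 rose (Sept4), while 3 had log2 fold changes below 0, the list median was -0.70, and DESeq2 called 1 lower (Onecut1) and 1 higher. Neither the 7 amacrine nor the 7 ganglion cell genes passed 0.05 with edgeR, where 2 and 0 had an unadjusted p under 0.05 and 2 and 0 passed with DESeq2. Over all genes tested, 9.2% fell and 7.35% rose at an adjusted p of 0.05 from edgeR. Beside these shares, 1 gene passing in a list of 5 or 8 is no result about that list. In whole retinae, fewer cells of a type and less RNA per cell cannot be told apart. Y-linked counts placed TKO replicate 1 and DKO replicates 1 and 2 as male and the other 3 retinae as female, so sex was not balanced between the genotypes.

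The sequences before the start sites are shown so that members that fell can be read beside members that did not pass the test. RefSeq promoter windows of GRCm38.p6, which reach from 250 bases before to 50 bases after the start, matched 6 of the 10 members. The RefSeq start of Espl1 and those of Cdca5, Pttg1 and Stag1 lie inside the gene as GENCODE draws it, so part of what is shown there is transcribed in that annotation. The last 30 bases before the start site are given 5′ to 3′ on the strand of the gene, with matches in capitals. The matches searched on both strands were the E2F-type TTCCCGC and TTGGCGC, the CHR (cell cycle genes homology region) TTTGAA and TTCGAA, and CCAAT. No matches in these 6 windows overlapped.
Espl1 (chr15:102296263-102296292, plus strand): ataTTTGAAaggaggtgctggcgcggaaaa
Cdca5 (chr19:6085067-6085096, plus strand): gcaaggcgggcaaTTTGAAcgTTTGAAgca
Pttg1 (chr11:43425982-43426011, minus strand): cacttcaggatctcaagcagccctggctgg
Smc1a (chrX:152016398-152016427, plus strand): aggaaatcgtgATTGGcttggacttattat
Smc3 (chr19:53600366-53600395, plus strand): cgacgcgcgggccccgcctccgcggccgcc
Stag1 (chr9:100643418-100643447, plus strand): gcaaaaggccacgtTTCCCGCgccgctgct

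Espl1 and Cdca5, the called members with a window, each held the CHR letters in these 30 bases, with 1 match in Espl1 and 2 in Cdca5. These matches precede the RefSeq start sites but lie inside the genes as GENCODE draws them. The other 4 windows held none, in the 30 bases or in the full window. Over all 32851 windows the CHR letters were found in 1.54% of the 30-base stretches and in 19.2% of the full windows. Members that did not pass also held matches in the 30 bases. The E2F-type letters were in 1 of the 6 stretches (Stag1) and in 0.703% of all stretches. CCAAT was in 1 (Smc1a) and in 4.65%. The 30-base stretch was not part of the planned count, so its shares are given as description only. In full windows the E2F-type letters were in 3 of the 6 members (Cdca5, Smc1a and Stag1) and in 6.81% of all windows, and CCAAT was in 3 (Espl1, Smc1a and Stag1) and in 37.4%. Further upstream, the stretch of the Espl1 window that lies in no annotated exon, chr15:102296152-102296265, carries the CCAAT match on its minus strand.
Espl1 upstream: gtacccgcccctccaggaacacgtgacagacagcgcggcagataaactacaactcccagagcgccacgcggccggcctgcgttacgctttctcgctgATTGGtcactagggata
These matches describe letters in the reference and not bound sites, and no binding was measured in the libraries analysed here.

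**Figure D2:**
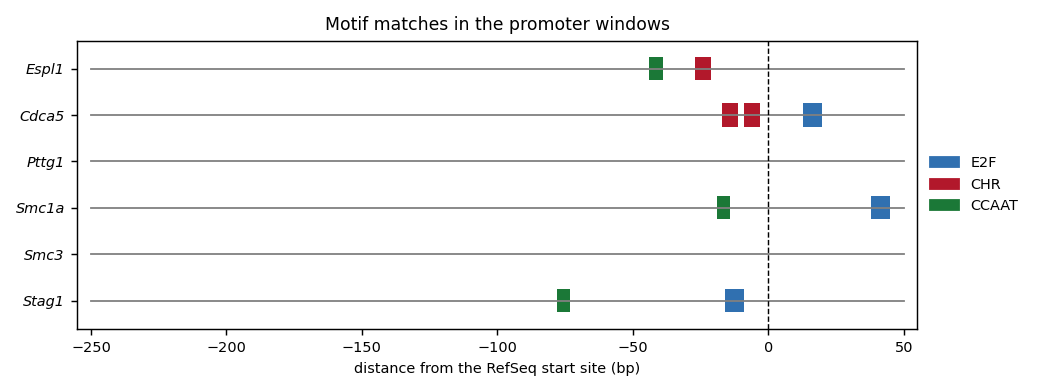
Matches to E2F-type letters (blue), CHR letters (red) and CCAAT (green) in 6 promoter windows, by distance in base pairs from the RefSeq start site (dashed line). CHR matches lie before the RefSeq start sites of Espl1 and Cdca5 and in none of the other 4 windows.

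Separase is the protease that cuts RAD21 at anaphase. Its gene Espl1 is on the plus strand of chromosome 15 (GRCm38, 102296266 to 102324357). Espl1 had 45.9, 62.1 and 114 normalized counts across the TKO retinae and 340, 268 and 192 in the DKO retinae. Each TKO retina lay below each DKO retina, with TKO replicate 3 and DKO replicate 3 closest to each other. The TKO mean was 74.0 ± 35.7 and the DKO mean 266 ± 74.1 (SD, n = 3), and the fitted log2 fold change was -1.85 (standard error, SE, 0.336, edgeR adjusted p = 0.0113), and DESeq2 gave an adjusted p of 5.08e-07. Without TKO replicate 2, DKO replicate 1 or DKO replicate 2 the adjusted p from edgeR was 0.057, 0.0513 and 0.0506.

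Securin, the inhibitor and chaperone of separase, is encoded by Pttg1 on chromosome 11 from 43420250 to 43426251 on the minus strand. Pttg1 had 249, 256 and 241 normalized counts across the TKO retinae and 197, 189 and 243 in the DKO retinae. The groups overlapped through DKO replicate 3, and the other DKO retinae lay below all TKO retinae. The log2 fold change was 0.24 (SE 0.133, edgeR adjusted p = 0.238), so a change in Pttg1 did not pass the test. Within a retina, the ratio of Pttg1 to Espl1 counts was 5.37, 4.09 and 2.10 in TKO and 0.58, 0.706 and 1.27 in the DKO retinae. These count ratios are not corrected for transcript length, so they are compared between retinae only. The ratio was higher in each TKO retina than in each DKO retina, by 4.46-fold between the group means on the log scale (exact two-sided permutation test p = 0.1, the smallest that 3 retinae against 3 allow, and 0.1 after adjustment over 5 ratios).

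The acetyltransferase genes went opposite ways. ESCO2 acetylates SMC3 during S phase, and its gene lies on chromosome 14 from 65819038 to 65833994 on the minus strand. Esco2 had 9.17, 27.4 and 76.1 normalized counts across the TKO retinae and 227, 179 and 96.7 in the DKO retinae. The groups did not overlap, but the TKO retinae ranged widely, with replicate 1 lowest and replicate 3 highest, and DKO replicate 3 was the lowest DKO retina. The log2 fold change was -2.17 (SE 0.595, edgeR adjusted p = 0.0416), the largest fall and the largest standard error among the members. The adjusted p from DESeq2 was 0.05003, and with a term for sex it was 0.0938 from edgeR. Leaving out TKO replicate 3 or DKO replicate 3 kept the edgeR value under 0.05, and it was 0.0753, 0.14, 0.132 and 0.12 without TKO replicate 1, TKO replicate 2, DKO replicate 1 and DKO replicate 2.

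ESCO1 acetylates SMC3 through the cell cycle and is expressed in cells that do not divide, and its gene lies on chromosome 18. Esco1 had 805, 734 and 617 normalized counts across the TKO retinae and 479, 509 and 512 in the DKO retinae. Each TKO retina exceeded each DKO retina, and the DKO retinae lay close together. Its log2 fold change was 0.52 (SE 0.109, edgeR adjusted p = 0.0169 and 0.00179 from DESeq2). The adjusted p from edgeR rose to between 0.0532 and 0.0729 without TKO replicate 1, TKO replicate 2, DKO replicate 1 or DKO replicate 2. A processed pseudogene, Gm7054, matches the Esco1 transcript over 820 bp at 98.8% identity, so reads of that stretch could have been placed on either. The 10 rod markers rose in the same TKO retinae, and their part in the difference of Esco1 was not tested. The ratio of Esco2 to Esco1 counts was 0.0121, 0.038 and 0.124 in TKO and 0.474, 0.352 and 0.19 in the DKO retinae. It was 8.21-fold lower in TKO between the group means on the log scale, with no overlap (exact two-sided permutation test p = 0.1, the smallest possible, 0.1 after adjustment over 5 ratios).

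Sororin binds acetylated cohesin and holds off its release by WAPL. Its gene Cdca5 lies on chromosome 19 from 6084983 to 6091777 on the plus strand. Cdca5 had 8.03, 22.1 and 51.5 normalized counts across the TKO retinae and 143, 130 and 72.5 in the DKO retinae. The order of the retinae was the same as for Esco2, and the groups did not overlap. The log2 fold change was -2.09 (SE 0.529, edgeR adjusted p = 0.0319 and 0.000397 from DESeq2). The adjusted p from edgeR was 0.0727 with a term for sex and 0.058, 0.116, 0.106 and 0.107 without TKO replicate 1, TKO replicate 2, DKO replicate 1 and DKO replicate 2. Relative to Smc3, the subunit whose acetylation precedes sororin binding, Cdca5 counts were 4.93-fold lower in TKO, and each TKO retina lay below each DKO retina (exact two-sided permutation test p = 0.1, the smallest possible, 0.1 after adjustment over 5 ratios).

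The ring subunits were measured with many more counts and had small fitted differences. RAD21 is the kleisin that closes the ring and the substrate of separase, and its gene lies on chromosome 15 from 51962240 to 51991747 on the minus strand. Rad21 had 3007, 3022 and 3117 normalized counts across the TKO retinae and 3816, 3899 and 3277 in the DKO retinae. The TKO retinae lay close together and each was below each DKO retina, of which replicate 3 was the lowest. The log2 fold change of -0.27 (SE 0.0906) had an adjusted p of 0.0806 from edgeR. It was 0.0315 without DKO replicate 3, and 0.0288 with scaling to total counts alone. The ratio of Espl1 to Rad21 counts was 3.12-fold lower in TKO (exact two-sided permutation test p = 0.1, the smallest possible, 0.1 after adjustment over 5 ratios), and no TKO retina reached the level of a DKO retina.

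SMC1A and SMC3 form the arms and the ATPase heads of the ring. Smc1a lies on chromosome X from 152016428 to 152062694 on the plus strand and had 2437, 2313 and 2447 normalized counts across the TKO retinae and 2868, 2714 and 2582 in the DKO retinae. The groups did not overlap, but the log2 fold change of -0.18 (SE 0.077) had an adjusted p of 0.141 from edgeR. With total counts as the scale it was -0.34 (adjusted p = 0.0334 from edgeR), a scale that moves the median of all genes from -0.011 to -0.17. With a term for sex, which bears on an X-linked gene, the log2 fold change was -0.16 (adjusted p = 0.25 from edgeR).

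Smc3 lies on chromosome 19 from 53600398 to 53645833 on the plus strand and had 2303, 2289 and 2181 normalized counts across the TKO retinae and 2447, 2442 and 2166 in the DKO retinae. The groups overlapped, with a log2 fold change of -0.059 (SE 0.0806, edgeR adjusted p = 0.653). The Smc3 transcript shares 616 bp at 94.5% identity with a processed pseudogene, Gm29763, and shorter stretches with 2 others.

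STAG1 and STAG2 are alternative subunits that help to place cohesin on chromatin. Stag1 lies on chromosome 9 from 100597798 to 100959375 and Stag2 on chromosome X from 42149317 to 42277185, both on the plus strand. Stag1 had 1368, 1324 and 1344 normalized counts across the TKO retinae and 1662, 1424 and 1286 in the DKO retinae. Stag2 had 2728, 2371 and 2316 in TKO and 2500, 2120 and 1946 in the DKO retinae. For both genes the groups overlapped. Their log2 fold changes were -0.12 (SE 0.1) and 0.18 (SE 0.113), and neither passed (edgeR adjusted p = 0.458 and 0.313).

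The ratio of Stag2 to Stag1 counts did not overlap between the genotypes, although both genes did. It was 1.99, 1.79 and 1.72 in TKO and 1.504, 1.488 and 1.513 in the DKO retinae. On the log2 scale the means were 0.87 ± 0.11 and 0.59 ± 0.012 (SD, n = 3 each), a difference of 0.29, or 1.22-fold (exact two-sided permutation test p = 0.1, the smallest possible, 0.1 after adjustment over 5 ratios). Stag2 is X-linked, and the highest ratio was in the male TKO replicate 1 and the other TKO retinae were female, while both male DKO retinae and the female one lay between 1.488 and 1.513.

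**Figure D3:**
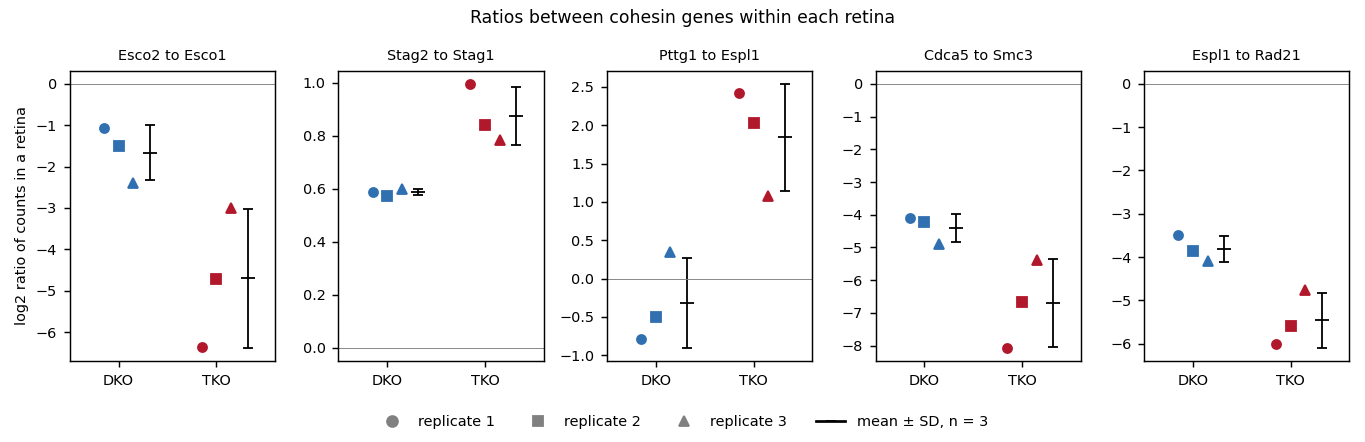
Log2 ratio of the counts of pairs of genes within each retina (vertical axes, which differ between panels), for DKO (blue) and TKO (red), with the replicate number as the symbol and the mean ± SD (n = 3) in black. In each of the 5 panels the DKO and TKO retinae do not overlap, and for Stag2 to Stag1 the SD of the DKO retinae is 0.012.

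The order of levels was read from normalized counts per kilobase of annotated exons. Rad21 led in both genotypes with 720 ± 14.1 in the TKO and 866 ± 79.8 in the DKO group (SD, n = 3 each). Smc1a followed with 416 ± 12.9 and 472 ± 24.7, then Smc3 with 407 ± 12.1 and 424 ± 29.0, which in TKO differed from Smc1a by less than their spread. Stag2 came next with 299 ± 27.1 and 264.6 ± 34.2. Stag1, Esco1 and Pttg1 lay between 114 and 141 in TKO and between 98.0 and 124 in DKO per kilobase, and their order changed between the genotypes and with the length used. Cdca5, Espl1 and Esco2 were lowest, at 12.8 ± 10.4, 8.46 ± 4.08 and 5.65 ± 5.20 in TKO and 54.2 ± 17.7, 30.4 ± 8.46 and 25.2 ± 9.89 in DKO. The last 3 did not differ beyond their spread in TKO. With the longest coding transcript as the length, the first 4 genes kept their places in both genotypes. The order of the last 3 changed in both, and in DKO it was Esco2 (57.5), Cdca5 (57.0) and Espl1 (40.0).

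The members that fell were then set against the dividing-cell markers, since those fell in the same retinae. Esco2 counts for each count on the 10 markers were 0.0096, 0.0199 and 0.0274 in TKO and 0.017, 0.0183 and 0.0155 in the DKO retinae. The groups overlapped, and the difference of the means was 0.038 on the log2 scale with an SD of 0.78 in TKO (exact two-sided permutation test p = 1, 1 after adjustment over 10 members). Cdca5 likewise overlapped, with a difference of 0.2 and an SD of 0.61 in TKO (exact two-sided permutation test p = 0.6, adjusted 0.667). With 9.17 normalized counts of Esco2 and 8.03 of Cdca5 in TKO replicate 1, a difference from the markers smaller than this spread was not detectable.

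Espl1 is the member that fell whose ratio to the markers did not overlap between the genotypes. For each count on the markers it had 0.0457, 0.0446 and 0.041 counts across the TKO retinae and 0.0254, 0.0274 and 0.0307 in the DKO retinae. The 3 TKO retinae lay above the 3 DKO retinae by 0.66 on the log2 scale, or 1.57-fold, with SDs of 0.082 and 0.14 (exact two-sided permutation test p = 0.1, the smallest possible, adjusted 0.125). With the mean log2 level of the markers in place of their sum, the difference was 0.72. The other 7 members had ratios to the markers that were 4.92-fold to 8.43-fold higher in TKO, without overlap (adjusted 0.125 each, from exact permutation tests). Because the markers fell, any gene with a steady level has a higher ratio in TKO, so these ratios are no separate result on the 7 members. The part of a change in the number of dividing cells in these differences was not tested.

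**Figure D4:**
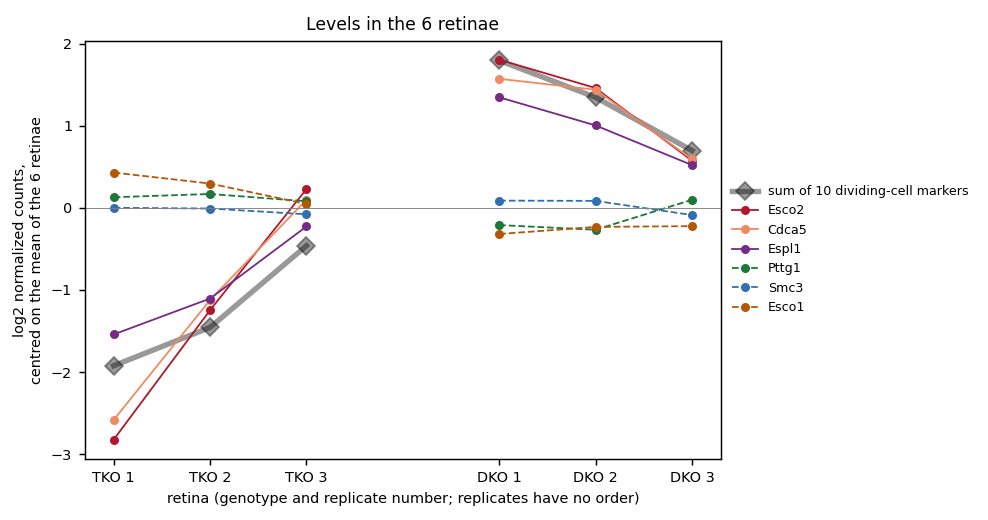
Log2 normalized counts of 6 of the genes and of the summed dividing-cell markers (grey diamonds) in each retina, each centred on its own mean over the 6 retinae (vertical axis). Esco2, Cdca5 and Espl1 follow the markers across the retinae, including the higher TKO replicate 3 and the lower DKO replicate 3. Pttg1 and Smc3 stay close to their own means, and Esco1 is higher in each TKO retina than in each DKO retina.

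The genes most like each member were found among 14976 genes by the root mean square difference of centred log2 normalized counts over the 6 retinae. The 3 nearest to Esco2 were Kif23 (0.148), Cdca5 (0.158) and Ankle1 (0.185), and those nearest to Cdca5 were Ccdc122 (0.138), Rrm2 (0.147) and Esco2 (0.158). The nearest to Espl1 were Mms22l (0.0694), Iqgap3 (0.0694) and Ercc6l (0.0936). Rad21 lay nearest to Spin1 (0.0142), Meis1 (0.0147) and Nono (0.0263), and Esco1 to Mettl3 (0.0215), Stk39 (0.0359) and Gm12709 (0.0383). The likeness was measured over both genotypes, so these genes share the direction of the member by the way they were chosen.

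Other genes of the pathway were counted by step, in the same retinae in which the dividing-cell markers fell, and the part of that fall in these counts was not tested. At an adjusted p of 0.05 from edgeR, 9.2% of all genes tested fell and 7.35% rose. Of 7 genes for loading, release and chromatin partners, 0 passed an adjusted p of 0.05 with edgeR, 1 lower and 3 higher had an unadjusted p under 0.05, and 2 were higher with DESeq2. The loader genes Nipbl and Mau2 had log2 fold changes of 0.45 and 0.25 (adjusted p = 0.0778 and 0.0613 from edgeR), and Wapl, the release factor listed as Wapal, had 0.41 (adjusted p = 0.0532 from edgeR). With DESeq2, Nipbl (adjusted p = 0.0307) and Wapl (adjusted p = 0.0243) passed. Both also passed with a term for sex (adjusted p = 0.048 and 0.03915 from edgeR). Pds5a and Pds5b, which encode scaffolds of the release and protection machinery, had -0.29 and -0.21, and Ctcf, whose product stops cohesin at loop anchors, had 0.091, and none of these passed. The median of the list was 0.091.

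Of 7 genes that establish cohesion at the replication fork, 5 fell and 0 rose, against 9.2% and 7.35% of all genes tested. Their median log2 fold change was -0.88. Dscc1, a subunit of the alternative clamp loader, had 13.8, 8.42 and 22.1 normalized counts across the TKO retinae and 68.7, 61.3 and 33.7 in the DKO retinae, and fell by 1.89 on the log2 scale (adjusted p = 0.0197 from edgeR). The fork gene Wdhd1 fell by 1.46, the fork protection genes Tipin and Timeless by 1.04 and 0.88, and the helicase gene Ddx11 by 0.81, which with a term for sex no longer passed (adjusted p = 0.0755 from edgeR). The other clamp loader genes Chtf18 and Chtf8 had -0.094 and 0.1 (adjusted p = 0.799 and 0.358 from edgeR). The count that fell was 2 of 7 without TKO replicate 1 and 1 of 7 without TKO replicate 2, DKO replicate 1 or DKO replicate 2.

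Of 4 genes that protect centromeric cohesion, 3 fell, against 9.2% of all genes tested. Sgo1, whose product shields centromeric cohesin from release, had 14.9, 17.9 and 30.7 normalized counts across the TKO retinae and 198, 161 and 98.4 in the DKO retinae, a log2 fold change of -2.85 (SE 0.353, edgeR adjusted p = 0.00603). Its groups were far apart, and this was a larger fitted fall than that of any of the 10 members. Sgo2a fell by 2.51 and Haspin, a histone kinase gene, by 2.37, and Sgo2b had between 1 and 4 counts per library. The count that fell was 1 of 4 without TKO replicate 2, DKO replicate 1 or DKO replicate 2. Of 4 genes of the anaphase trigger, Cdc20, Plk1 and Mad2l1 fell by 2.93, 2.29 and 0.72, and Fzr1, which activates the same ubiquitin ligase after mitosis and in cells that have left the cycle, had -0.10 (adjusted p = 0.378 from edgeR).

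Of 4 genes of meiotic subunits, Smc1b and Stag3 fell by 1.14 and 0.96 (adjusted p = 0.0444 and 0.0468 from edgeR), and with a term for sex neither passed (adjusted p = 0.0917 and 0.0889 from edgeR). Stag3 had 461, 276 and 495 normalized counts across the TKO retinae and 1068, 775 and 549 in the DKO retinae, with DKO replicate 3 just above the TKO retinae. Over all genes tested, 9.2% fell. The count of meiotic genes that fell dropped to 0 of 4 without TKO replicate 1, TKO replicate 2, DKO replicate 1 or DKO replicate 2. Rad21l had between 1 and 4 counts per library, and Rec8 did not pass (adjusted p = 0.754 from edgeR). Without TKO replicate 3 the count was 3, Rec8 included (adjusted p = 0.02 from edgeR).

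**Figure D5:**
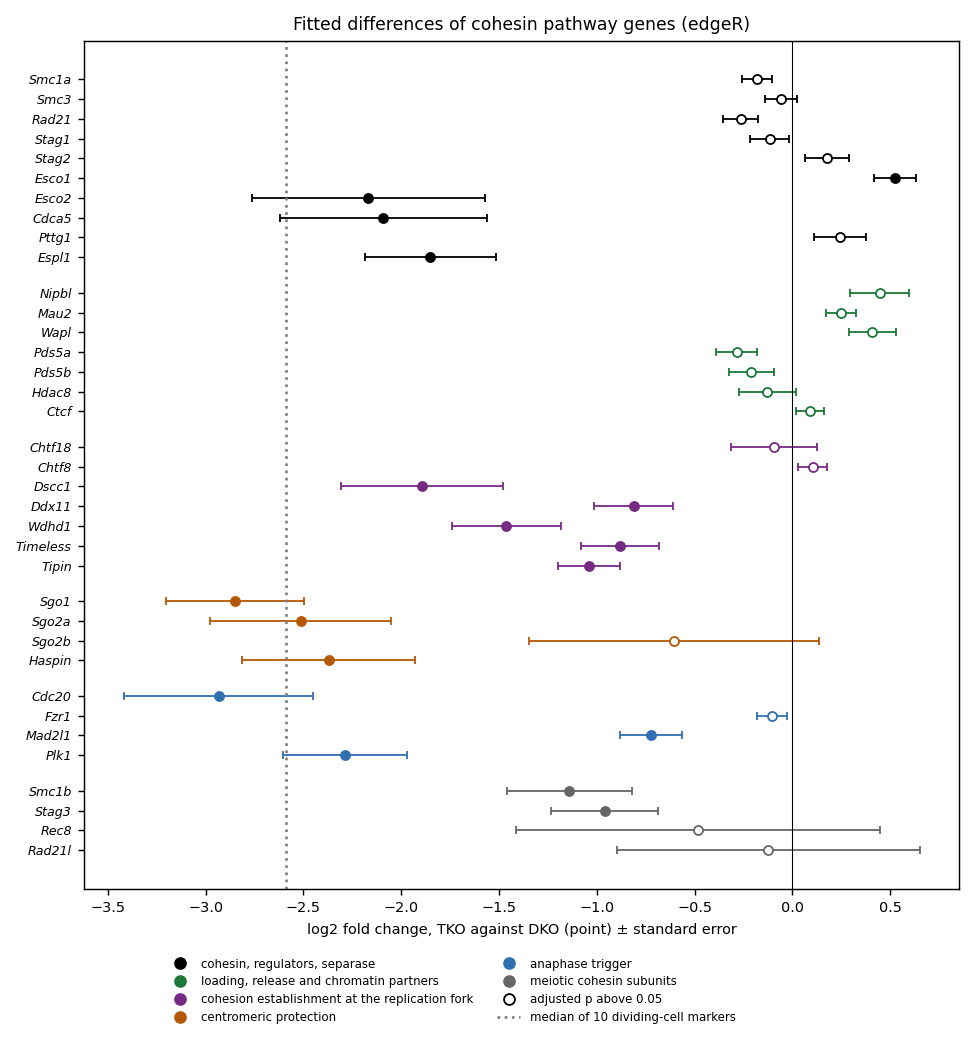
Fitted log2 fold changes of TKO against DKO (points) with their standard errors (bars) for the 10 genes (black) and for the other genes of the pathway by step (colours), filled where the adjusted p from edgeR was at most 0.05. The filled points lie left of 0 except that of Esco1, and the dotted line marks the median of the dividing-cell markers at -2.59.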

How the data were processed

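Counts from 3 TKO and 3 DKO retinae at postnatal day 21 were analysed, grouped by the sample titles. The deposited values are raw counts of read pairs per gene, which the authors made, by the paper's methods, from TruSeq Stranded mRNA libraries with STAR and HTSeq on GRCm38, allowing more than 1 alignment per read. The submitters' processing notes name TopHat2 and featureCounts instead, and the strand setting of the counting is not given in the sources used here, so genes with close copies are less certain. Each library name carries its own number and both sexes occur in each group, so the retinae are not all of 1 mouse, but the labels do not say that each came from a separate mouse. P-values cover the spread between these samples, part of which may be technical.

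Genes with a sum under 10 were removed, leaving 16904. The quasi-likelihood F test of edgeR 4.0.16 (R 4.3.3) was run with TMM scaling and Benjamini-Hochberg adjustment over all genes tested, and SEs were obtained as |log2 fold change| over √F. To normalize, counts were scaled by TMM-adjusted library sizes, set relative to their average. The mean count of at least 10 used DESeq2 size factors. On simulated data with 200 of 16738 genes changed 8-fold, edgeR recovered 193 with the correct sign and called 12 of the 16538 left unchanged. Every member changed by less than 8-fold, and recovery of such smaller changes was not simulated. Count ratios used a pseudocount of 0.5 and an exact permutation test over retinae. Counts of replicate pairs gave a chi-square of 8.61 to 25.3 for each degree of freedom, above sampling noise.

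Coordinates and exon lengths are from GENCODE M21 on GRCm38, and sequences from RefSeq on GRCm38.p6. The windows of Rad21, Stag2, Esco1 and Esco2 were not used here. Copies were sought by BLAST at 90% identity over at least 100 bp. Sgo1, Sgo2a, Sgo2b, Haspin and Wapl were matched through older symbols.

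The members and the gene lists were chosen with earlier results of these data known. Named genes were the members, the pathway lists, Hells and the 3 genes nearest to a member, of which those of 5 members are given. Alternatives were DESeq2 1.42.0, 3 other scalings, 2 other filters, robust dispersions, a block for the replicate number, leaving out each retina, another pseudocount and another marker summary. A term for sex was added after seeing the data.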

Additional observations from a re-analysis of the deposited data

How the results depend on the processing

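Directions of the 10 members held in all fits. Their calls depended on the dispersion estimate and on single retinae, and the number of calls over all genes tested also changed with single retinae. The count of members that fell was 3, and it was 1 with robust dispersions (Espl1), 1 with a term for sex (Espl1), 5 with total counts only, and 0 to 4 with 1 retina left out (0 without TKO replicate 2, DKO replicate 1 or DKO replicate 2, and 1 without TKO replicate 1). By the 3 criteria it was 3, then 1 with robust dispersions, 1 with the sex term and 0 to 3 with 1 retina left out. The count that rose was 1, and 0 to 1 with 1 retina left out. The log2 fold change of Esco2 was -2.15 with DESeq2 (adjusted p = 0.05003), -2.17 with robust dispersions (adjusted p = 0.0879) and -2.25 with the sex term (adjusted p = 0.0938), and -3.16 to -1.71 with 1 retina left out. That of Cdca5 was -2.09 with robust dispersions (adjusted p = 0.0505) and -2.16 with the sex term (adjusted p = 0.0727), and -2.90 to -1.66 with 1 retina left out. That of Espl1 ran from -2.29 to -1.60 and that of Esco1 from 0.43 to 0.63 with 1 retina left out. With total counts only, Smc1a (-0.34) and Rad21 (-0.42) passed the threshold, and Rad21 ran from -0.34 to -0.22 with 1 retina left out. The causes were not tested.

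Of the pathway lists, loading and release genes had 0 calls in the main fit, 1 lower with total counts only, and 2 higher with DESeq2, 1 higher without a filter and 1 with robust dispersions. Nipbl and Wapl were also past the threshold, as higher, with the sex term. With 1 retina left out they had 0 to 1 lower (1 without DKO replicate 3) and 0 to 2 higher (2 without TKO replicate 3). With 1 retina left out, genes that fell numbered 1 to 5 of the fork list, 1 to 3 of the centromere list, 2 to 3 of the anaphase list and 0 to 3 of the meiotic list, where 1 fell with robust dispersions. Relative to the dividing-cell markers, the differences of Esco2 and Cdca5 ran from -0.29 to 0.47 and from -0.024 to 0.55 on the log2 scale with 1 retina left out and so changed sign (for Esco2, -0.059, -0.29 and -0.022 on leaving out TKO replicate 2, TKO replicate 3 or DKO replicate 3, and for Cdca5, -0.024 on leaving out TKO replicate 3). The other ratios kept their direction in the alternatives run.

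With the replicate number as a block, 0 members fell, 0 rose and 0 met the 3 criteria, and 0 genes of the fork, centromere, anaphase and meiotic lists fell. Of the 16904 genes tested, 75 lower and 15 higher met the 3 criteria under the block, against 741 and 333 in the main fit. Under the block the log2 fold changes were 0.52 for Esco1, -2.31 for Esco2, -2.19 for Cdca5 and -1.88 for Espl1. Same-numbered retinae had correlations of 0.073, -0.04 and -0.16 between their deviations from the group means, and were not taken as pairs.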

Other observations

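Rec8, the meiotic kleisin that replaces RAD21 in germ cells, stood at 51.6, 43.2 and 594 normalized counts for TKO replicates 1, 2 and 3, against 101, 372 and 478 for DKO replicates 1, 2 and 3. The levels within a genotype spread over more than the difference between the genotype means of 229.6 and 317, and both sexes were among the high and the low retinae. TKO replicate 3 was the highest of the 6, and leaving it out gave Rec8 an edgeR adjusted p of 0.02. The reason for the spread was not tested.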
